A study of Drosophila melanogaster with 18 samples.

Results

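The genes described here are 9 genes that act in, or are transcribed in response to, signalling by the ERK kinase: sprouty (sty), argos (aos), Mkp3, kekkon 1 (kek1), rhomboid (rho), pointed (pnt), anterior open (aop), Hr38 and stripe (sr). They were taken by symbol from the 17753 gene entries of the series, and all 9 were found and passed the filter on low counts. The choice used no measured value, but it was made with earlier results of these libraries known.

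The ERK pathway carries signals from receptor tyrosine kinases at the cell surface, such as the EGF receptor, through Ras and a chain of kinases to ERK, which the fly gene rolled (rl) encodes. Active ERK changes the transcription factors Pointed, an activator, and Anterior open (also called Yan), a repressor. Several genes that they control encode proteins that dampen the pathway. Immediate early genes are a related class that is transcribed within a short time of stimulation, without new protein synthesis.

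The libraries came from DL1 cells, an established Drosophila melanogaster cell line labelled as wild type, and all groups shared this line and medium. Each treated culture received 2 µg of dsRNA in its medium and was kept for 3 days; fly cells take up such long double-stranded RNA and degrade matching transcripts. The 6 groups of 3 libraries were a Mock treatment, dsRNA against B-gal as the control, dsRNA against IntS4 or IntS6, subunits of the RNA-cleaving Integrator complex, and dsRNA against mts (catalytic subunit) or Pp2A-29B (scaffold subunit) of the phosphatase PP2A. The biological replicate sets A, B and C each contributed 1 library to every group. PP2A is recruited to transcribed genes by Integrator and also acts on many proteins elsewhere, including components of the ERK pathway.

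Libraries held 13445318 to 19298644 counts, and ribosomal RNA took 65.1 to 74.8% of them despite depletion, most in the mts group. Values below are CPM, counts scaled to a common library total that includes ribosomal RNA. The targeted transcripts were lower with mts dsRNA (64.0 ± 15.4 against 150 ± 16.3 CPM with B-gal dsRNA, SD, n = 3) and with Pp2A-29B dsRNA (45.9 ± 3.68 against 157 ± 8.11 CPM). In the libraries labelled IntS4 or IntS6 dsRNA, mts was also below B-gal (log2 -0.51 in both, edgeR adjusted p = 0.0053 and 0.0057). So was Pp2A-29B (-0.37 and -0.33, adjusted p = 0.00071 and 0.0021). IntS4 stood at 98.8 ± 111 against 12.1 ± 0.191 CPM and IntS6 at 83.9 ± 57.6 against 29.8 ± 3.26 CPM in the libraries labelled with their own dsRNA, so the counts did not show their depletion and those groups are called by their labels. Plasmatocyte markers, which define macrophage-like haemocytes, were all detected (11 of 11), with the summed level at 281 to 308 CPM in B-gal libraries, although NimC1, Sr-CI and vkg were each under 1 CPM there. That sum was 934 to 1341 CPM in IntS4-labelled, 934 to 1225 in IntS6-labelled, 516 to 575 in mts and 450 to 500 in Pp2A-29B libraries. The sum of 5 lamellocyte markers was 320 to 390, 691 to 758, 513 to 602, 895 to 1332 and 619 to 815 CPM in the same order. Of these, PPO3, msn and mys were called higher than B-gal in all 4 other groups by edgeR. The markers atilla and ItgaPS4 were not called with the IntS4 (adjusted p = 0.77 and 0.085) or IntS6 label (0.62 and 0.058). They were higher with mts (log2 6.47 and 10.2) and Pp2A-29B dsRNA (4.63 and 8.18). Of the 5 markers, 2 were under 1 CPM in B-gal libraries and 0 in the mts and Pp2A-29B libraries. The control level of atilla and ItgaPS4 was poorly determined (SE 1.09 and 2.58 for B-gal against Mock). A marker nearly silent in controls passes the filter only through libraries in which it is high, which fixes its direction. The fold changes of atilla and ItgaPS4 are therefore descriptions only. Crystal cell markers summed to at most 1.19 CPM in B-gal libraries, to 23.4 to 26.8 in IntS4-labelled and to 7.66 to 13.2 in IntS6-labelled libraries, with PPO1 at 0 in both, and to 0.836 to 1.13 in mts and 1.52 to 2.84 in Pp2A-29B libraries. Of these 4 markers, 3 were under 1 CPM in the IntS4-labelled and 2 in the IntS6-labelled group. The log2 fold change of peb was 5.05 and 3.65 with these labels. That of lz was 1.82 (edgeR adjusted p = 0.059) and 2.70 (adjusted p = 0.004). Gonad markers (4, of which only tj passed the filter) summed to 148 to 172 CPM in B-gal, 63.9 to 82.8 in IntS4-labelled, 75.0 to 106 in IntS6-labelled, 29.4 to 39.0 in mts and 43.4 to 56.2 in Pp2A-29B libraries, the groups in which sty and aos were also lower. Muscle markers (4) summed to 0.546 to 0.681 CPM in B-gal, 3.74 to 5.03 in IntS4-labelled, 1.74 to 2.76 in IntS6-labelled, 1.09 to 2.96 in mts and 1.84 to 2.98 in Pp2A-29B libraries, neuron markers (4) to 13.0 to 29.1 CPM over these 5 groups, and fat body markers to at most 0.324 CPM. The part of these markers in the results below was not tested. In such bulk libraries, fewer cells of a kind and less RNA per cell cannot be told apart.

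In control cells the pathway antagonist sty had the highest level per length of the 9 genes and the transcription factor sr the lowest. With B-gal dsRNA the level per kilobase of exon was 57.3 ± 8.92 CPM for sty, 26.7 ± 2.64 for pnt, 25.6 ± 4.11 for aop and 20.1 ± 2.74 for kek1 (SD, n = 3). It was 9.04 ± 0.437 for Mkp3, 4.70 ± 0.411 for aos, 0.504 ± 0.114 for Hr38, 0.326 ± 0.0547 for rho and 0.012 ± 0.00747 for sr. In this order the ranges of mean ± SD of the neighbours pnt and aop overlapped, as did those of aop and kek1, and those of the other neighbours did not. Of all 8699 genes tested, edgeR called 0 different between B-gal and Mock libraries (243 at an unadjusted p under 0.05, and 0 with 206 by DESeq2), so 0% was the background of that comparison and none of the 9 genes was called.

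Against B-gal dsRNA, most of the 9 genes fell with either PP2A dsRNA, whereas the libraries labelled IntS4 or IntS6 dsRNA held both higher and lower members. In the libraries labelled IntS4 dsRNA 4 of the 9 were higher (rho, Hr38, sr and kek1) and 2 lower (sty and aos), where 27% of all tested genes were higher and 20.2% lower (47.1% in all). The libraries labelled IntS6 dsRNA gave 4 higher and 2 lower as well, against 26.4% and 19.3% of all genes (45.7% in all). With mts dsRNA 7 were lower and 1 higher, against 24.8% and 26.6% of all genes (51.4% in all), and with Pp2A-29B dsRNA 7 were lower and 1 higher, against 17.8% and 21% (38.8% in all). The median log2 fold change of the 9 was 0.13, -0.10, -0.98 and -0.71 in these 4 comparisons, which share the B-gal libraries, while that of all tested genes was between -0.01 and 0.00. The gene sr passed the filter through the libraries in which it was high, so these counts and medians are descriptions only.

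**Figure D1:**
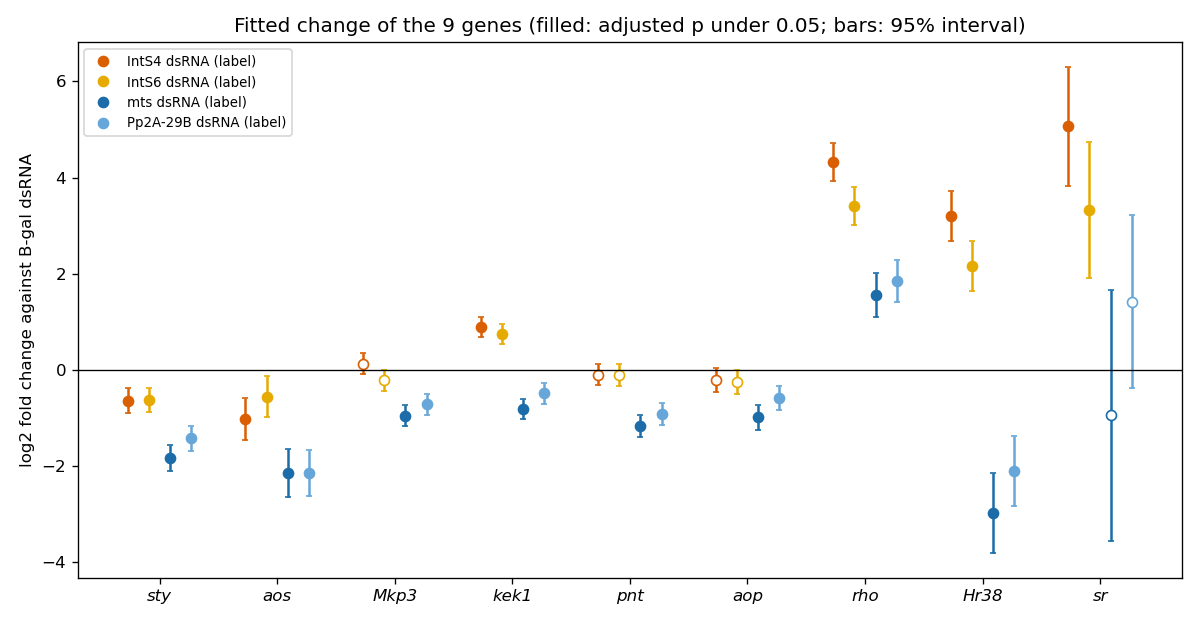
Fitted log2 fold change of each of the 9 genes against B-gal dsRNA (vertical axis) in the 4 other dsRNA groups, named by their labels. Points are edgeR estimates from 3 libraries a group, bars their 95% intervals, and filled points have an adjusted p under 0.05. Filled points of mts and Pp2A-29B dsRNA lie below 0 for 7 genes and above 0 for rho, and kek1 and Hr38 lie above 0 in the IntS4- and IntS6-labelled libraries.

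The antagonist sty (chromosome 3L, 3401153 to 3424935, minus strand, BDGP6) encodes Sprouty, an intracellular inhibitor of receptor tyrosine kinase signalling. Its level in sets A, B and C was 244, 292 and 312 CPM in Mock and 256, 332 and 346 CPM in B-gal libraries. It was 193, 197 and 209 CPM in the libraries labelled IntS4 dsRNA and 199, 224 and 183 CPM in those labelled IntS6 dsRNA. With mts dsRNA it was 77.8, 89.5 and 95.1 CPM, and with Pp2A-29B dsRNA 117, 118 and 115 CPM. All 12 libraries of these 4 groups lay below every B-gal library, and the PP2A libraries lay below every IntS4- and IntS6-labelled library. The log2 fold change against B-gal was -0.64 (SE 0.12, adjusted p = 0.00018, edgeR quasi-likelihood test) with the IntS4 label and -0.62 (SE 0.12, adjusted p = 0.00025) with the IntS6 label. The fall was -1.83 (SE 0.12, adjusted p = 1.9e-09) with mts and -1.42 (SE 0.12, adjusted p = 5.8e-08) with Pp2A-29B dsRNA, which left 28.1% and 37.4% of the B-gal mean.

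The gene aos (3L, 16470386 to 16483650, minus strand) encodes Argos, a secreted protein that binds the EGF receptor ligand Spitz and keeps it from the receptor. Its level was 13.1, 13.2 and 15.0 CPM in Mock and 13.0, 12.3 and 14.5 CPM in B-gal libraries. It was 8.39, 5.46 and 5.97 CPM in the libraries labelled IntS4 dsRNA and 8.80, 8.47 and 9.81 CPM in those labelled IntS6 dsRNA. The mts libraries stood at 2.89, 1.98 and 4.22 CPM, and with Pp2A-29B dsRNA 3.34, 1.98 and 3.69 CPM, from 28 to 57 counts a library. The libraries of each of these 4 groups lay below every control library without overlap, and those of the PP2A groups were lowest. Against B-gal, aos fell by 2.15 on the log2 scale with mts (SE 0.23, adjusted p = 4.1e-07) and by 2.14 with Pp2A-29B dsRNA (SE 0.22, adjusted p = 7.3e-07), among the 180 and 87 lowest of all tested genes. The log2 fold change was -1.02 (SE 0.20, adjusted p = 0.00042) with the IntS4 label and -0.55 (SE 0.20, adjusted p = 0.029) with the IntS6 label. The call with the IntS6 label was lost without B-gal set C (-0.48, adjusted p = 0.088), IntS6 set A (-0.54, adjusted p = 0.076) or IntS6 set B (-0.51, adjusted p = 0.082).

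Mkp3 (3L, 19066155 to 19086426, minus strand) encodes a phosphatase that removes the activating phosphates of ERK. Its level was 45.9, 46.2 and 45.2 CPM in Mock and 43.5, 44.4 and 40.5 CPM in B-gal libraries. It was 50.8, 48.3 and 41.7 CPM in the libraries labelled IntS4 dsRNA and 36.8, 34.6 and 39.2 CPM in those labelled IntS6 dsRNA. Under mts dsRNA the level was 21.9, 25.0 and 19.4 CPM, and with Pp2A-29B dsRNA 27.1, 27.2 and 24.1 CPM. The PP2A libraries lay below all others, the IntS4-labelled libraries overlapped the controls, and the IntS6-labelled libraries lay just below them. Mkp3 fell by 0.95 on the log2 scale with mts (SE 0.10, adjusted p = 4.2e-07) and by 0.71 with Pp2A-29B dsRNA (SE 0.10, adjusted p = 1.8e-05). It was not called with the IntS4 label (0.13, 95% interval -0.08 to 0.34, adjusted p = 0.28) or the IntS6 label (-0.22, -0.43 to 0.00, adjusted p = 0.081), and with the replicate set as a block the latter passed (-0.21, adjusted p = 0.048).

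The gene kek1 (2L, 12817000 to 12822787, minus strand) encodes a membrane protein that binds and inhibits the EGF receptor, and it moved in opposite directions in the Integrator-labelled and PP2A libraries. Its level was 103, 117 and 109 CPM in Mock and 103, 134 and 112 CPM in B-gal libraries. It was 233, 220 and 199 CPM in the libraries labelled IntS4 dsRNA and 203, 200 and 182 CPM in those labelled IntS6 dsRNA. With mts dsRNA it was 70.3, 64.6 and 64.1 CPM, and with Pp2A-29B dsRNA 87.0, 81.7 and 80.8 CPM. Every Integrator-labelled library lay above, and every PP2A library below, all 6 control libraries. Against B-gal the log2 fold change was 0.90 (SE 0.10, adjusted p = 3.1e-07) with the IntS4 label and 0.74 (SE 0.10, adjusted p = 3.9e-06) with the IntS6 label. It was -0.81 (SE 0.10, adjusted p = 1.8e-06) with mts and -0.49 (SE 0.10, adjusted p = 0.00061) with Pp2A-29B dsRNA.

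**Figure D2:**
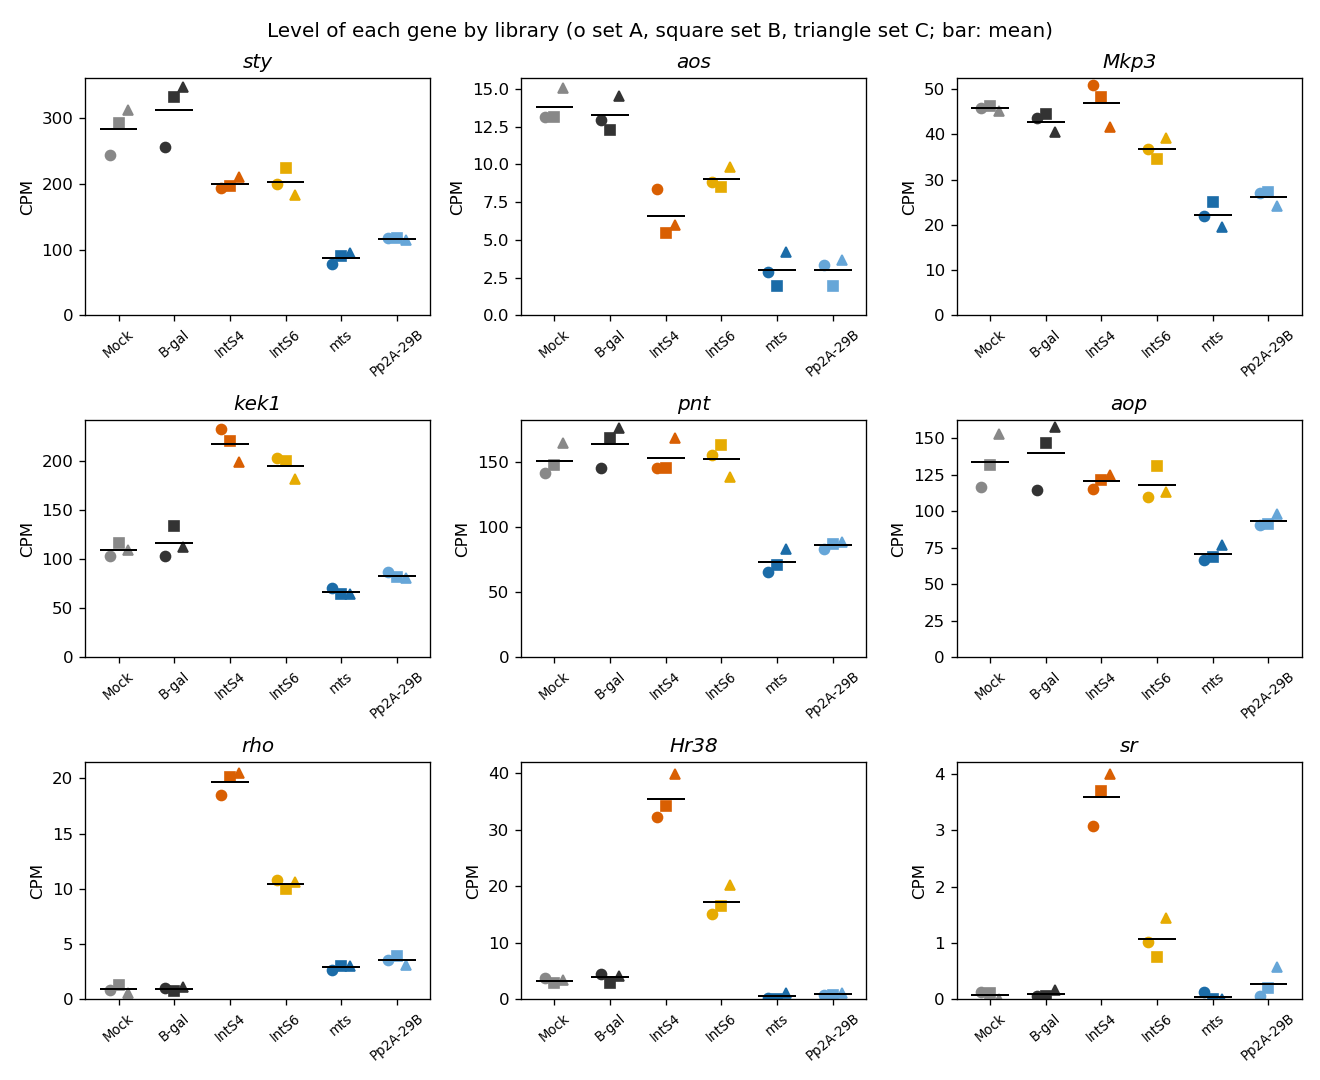
Level of each of the 9 genes in every library in CPM (vertical axes, each from 0 with its own range), by group. Circles, squares and triangles are sets A, B and C and bars the mean of 3 libraries. For kek1 and Hr38 the IntS4- and IntS6-labelled libraries lie above and the PP2A libraries below both control groups, whereas sty and aos lie below the controls in all 4 groups.

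The gene rho (3L, 1463811 to 1468944, plus strand) encodes Rhomboid, a protease that releases the ligand Spitz from its membrane-bound precursor, and it was higher in all 4 dsRNA groups. Its level was 0.867, 1.26 and 0.611 CPM in Mock and 1.02, 0.795 and 1.11 CPM in B-gal libraries, from 10 to 23 counts a library. It was 18.5, 20.2 and 20.5 CPM in the libraries labelled IntS4 dsRNA and 10.8, 10.0 and 10.6 CPM in those labelled IntS6 dsRNA. In mts libraries it was 2.64, 3.03 and 3.04 CPM, and with Pp2A-29B dsRNA 3.58, 3.89 and 3.11 CPM. None of the 4 groups overlapped the controls, and the IntS4-labelled, IntS6-labelled and PP2A libraries formed separate levels. Against B-gal the log2 fold change was 4.33 (SE 0.18, adjusted p = 4.7e-13) with the IntS4 label and 3.42 (SE 0.18, adjusted p = 2.5e-11) with the IntS6 label. It was 1.56 (SE 0.21, adjusted p = 5.8e-06) with mts and 1.84 (SE 0.20, adjusted p = 1.1e-06) with Pp2A-29B dsRNA.

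The gene pnt (3R, 23290231 to 23346167, minus strand) encodes the ETS-domain activator that ERK turns on. Its level was 141, 148 and 165 CPM in Mock and 146, 169 and 177 CPM in B-gal libraries. It was 145, 145 and 169 CPM in the libraries labelled IntS4 dsRNA and 156, 163 and 138 CPM in those labelled IntS6 dsRNA. The mts libraries were at 65.9, 71.1 and 83.3 CPM, and with Pp2A-29B dsRNA 82.9, 86.8 and 88.9 CPM. The Integrator-labelled libraries overlapped the controls and all PP2A libraries lay below them. The log2 fold change was -1.16 with mts (SE 0.11, adjusted p = 7.6e-08) and -0.92 with Pp2A-29B dsRNA (SE 0.10, adjusted p = 2e-06). It was not called with either Integrator label, at -0.10 in both (95% intervals -0.32 to 0.13 and -0.33 to 0.12, adjusted p = 0.48 and 0.45).

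The gene aop (2L, 2156484 to 2178754, minus strand) encodes the ETS-domain repressor Yan, which competes with Pointed for binding sites and which ERK inactivates. Its level was 116, 132 and 153 CPM in Mock and 114, 147 and 158 CPM in B-gal libraries. It was 115, 122 and 125 CPM in the libraries labelled IntS4 dsRNA and 109, 131 and 113 CPM in those labelled IntS6 dsRNA. In the mts group it was 66.9, 68.4 and 76.6 CPM, and with Pp2A-29B dsRNA 90.8, 91.5 and 98.3 CPM. Both PP2A groups lay below all other libraries without overlap, mts lowest, so the activator and the repressor were lower in the same libraries. Against B-gal, aop fell by 0.98 on the log2 scale with mts (SE 0.12, adjusted p = 1.8e-06) and by 0.58 with Pp2A-29B dsRNA (SE 0.12, adjusted p = 0.00072). It was not called with the IntS4 label (-0.21, 95% interval -0.47 to 0.04, adjusted p = 0.15) or the IntS6 label (-0.24, -0.50 to 0.01, adjusted p = 0.098). It passed with the IntS4 label without B-gal set A (-0.34, adjusted p = 0.019). With the IntS6 label it passed with the replicate block (-0.23, adjusted p = 0.031), without B-gal set A (-0.37, adjusted p = 0.011) and without IntS6 set B (-0.33, adjusted p = 0.049).

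Hr38 (2L, 20683462 to 20714588, minus strand) encodes an orphan nuclear receptor whose mammalian relatives are immediate early genes, and it too moved in opposite directions. Its level was 3.72, 2.90 and 3.36 CPM in Mock and 4.57, 2.90 and 4.17 CPM in B-gal libraries. It was 32.3, 34.2 and 39.9 CPM in the libraries labelled IntS4 dsRNA and 15.1, 16.5 and 20.1 CPM in those labelled IntS6 dsRNA. With mts dsRNA it was 0.257, 0.141 and 1.18 CPM (4, 2 and 14 counts), and with Pp2A-29B dsRNA 0.803, 0.725 and 1.17 CPM (13, 11 and 18 counts). No library of these 4 groups overlapped the controls, and the set C mts library was several times higher than the other mts libraries and level with the highest Pp2A-29B library. The log2 fold change was 3.20 (SE 0.24, adjusted p = 1.9e-09) with the IntS4 label and 2.16 (SE 0.24, adjusted p = 5.2e-07) with the IntS6 label. It was -2.97 (SE 0.38, adjusted p = 4.3e-06) with mts dsRNA, and -4.21 (adjusted p = 1.4e-07) without the set C mts library. With Pp2A-29B dsRNA it was -2.10 (SE 0.33, adjusted p = 6.4e-05). The mts level was 0.125 of the B-gal level by summed counts (20 against 193, exact 95% interval 0.0748 to 0.199, counting error only). Exons of CG2617 overlap Hr38 on the other strand over 168 bases, and CG2617 ranged from 3.19 to 5.72 CPM over the group means.

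The gene sr (3R, 18090803 to 18135583, plus strand) encodes Stripe, a zinc-finger factor of the mammalian Egr family, which fly tendon cells require, and it was near the detection floor outside the Integrator-labelled libraries. It had 2, 2 and 0 counts in Mock and 1, 1 and 3 counts in B-gal libraries. It had 42, 73 and 61 counts (3.06, 3.69 and 4.00 CPM) in the libraries labelled IntS4 dsRNA and 18, 11 and 22 counts (1.01, 0.746 and 1.45 CPM) in those labelled IntS6 dsRNA. With mts dsRNA it had 2, 0 and 0 counts, and with Pp2A-29B dsRNA 1, 3 and 9 counts. The Integrator-labelled libraries lay above all others, and the mts and Pp2A-29B libraries overlapped the controls. By summed counts the ratio to B-gal was 36.3 (exact 95% interval 15.3 to 113) with the IntS4 label and 10.7 (4.31 to 34.4) with the IntS6 label. The fitted log2 fold changes were 5.07 (SE 0.57, adjusted p = 5.6e-07) and 3.33 (SE 0.65, adjusted p = 0.00036), and 5.68 and 3.94 without the set C B-gal library, which held 3 of the 5 control counts. With mts the ratio was 0.483 (0.046 to 2.95) and with Pp2A-29B dsRNA 2.79 (0.934 to 10.0), neither of which was called (adjusted p = 0.54 and 0.19), and a difference was not detectable at this depth.

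Set directly against each other, without the shared control, the mean of the 2 PP2A groups was lower than the mean of the 2 Integrator-labelled groups for all 9 genes, of which sr entered the test only through the Integrator-labelled libraries, so that its direction was fixed by the filter. Of all tested genes 33.6% were lower, 26% higher and 59.6% called in either direction, and the median log2 difference was -1.36 for the 9 genes, sr included, against -0.05 for all. The largest difference was that of Hr38, -5.21 (SE 0.22, adjusted p = 4.7e-13), the 110th lowest of the 8699 genes and -5.82 without the set C mts library. For sr it was -3.96 (SE 0.45, adjusted p = 4.1e-07), and -5.37 once the mts library of set A, which held both counts of its group, was left out. For rho, which was above B-gal in both, it was -2.17 (SE 0.11, adjusted p = 6.3e-12), and for kek1 -1.47 (SE 0.07, adjusted p = 2.4e-12). The other antagonists had differences of -1.36 (aos, adjusted p = 1e-06), -0.99 (sty, adjusted p = 9.1e-09) and -0.79 (Mkp3, adjusted p = 2e-08). The transcription factors pnt and aop had -0.94 (adjusted p = 3.6e-09) and -0.55 (adjusted p = 1.4e-05), the latter the smallest of the 9.

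The libraries labelled IntS6 dsRNA were lower than those labelled IntS4 dsRNA for 4 of the 9 genes and higher for 0, where 4.01% of all genes were lower, 2.53% higher and 6.54% called. These were rho (-0.91, SE 0.14, adjusted p = 0.00021), Hr38 (-1.04, SE 0.21, adjusted p = 0.0032), sr (-1.74, SE 0.39, adjusted p = 0.0086) and Mkp3 (-0.35, SE 0.10, adjusted p = 0.037). For rho, Hr38 and sr, the members with the highest fold changes with both labels, every IntS6-labelled library lay below every IntS4-labelled library. The call of sr was lost without IntS6 set A (adjusted p = 0.054) or B (adjusted p = 0.059). That of Mkp3 was lost without IntS4 set A or B or IntS6 set A or B (adjusted p from 0.11 to 0.18), without the filter (0.1) and in a fit of those groups alone (0.081). For the other 5 genes the 95% interval of the log2 difference was -0.24 to 0.27 (sty), 0.01 to 0.92 (aos, adjusted p = 0.25), -0.23 to 0.22 (pnt), -0.29 to 0.22 (aop) and -0.37 to 0.05 (kek1).

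Between the PP2A groups, 3 of the 9 genes were higher with Pp2A-29B than with mts dsRNA and 0 lower, where 4.81% of all genes were higher, 4.94% lower and 9.75% called (848 genes, and 1457 with the replicate block). The 3 were sty (0.41, SE 0.12, adjusted p = 0.035), aop (0.41, SE 0.12, adjusted p = 0.037) and kek1 (0.33, SE 0.10, adjusted p = 0.042). All 3 remained called with the replicate block (adjusted p = 0.0062, 0.0043 and 0.016). Without it, leaving out a library ended these calls in 4 of 6 cases for sty (adjusted p up to 0.15) and in 5 of 6 each for aop (up to 0.13) and kek1 (up to 0.16), and the call of kek1 was also lost without the filter (0.11). For the rest the interval of the log2 difference was 0.02 to 0.46 (Mkp3), 0.00 to 0.46 (pnt), -0.10 to 0.66 (rho) and -0.55 to 0.57 (aos), and that of Hr38 was -0.20 to 1.95 (0.87, adjusted p = 0.28). Hr38 was called at 2.11 (adjusted p = 0.019) once the set C mts library was left out. The gene sr (13 against 2 counts) had a count ratio of 5.77 (exact 95% interval 1.31 to 52.7) and was not called (adjusted p = 0.15).

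Within each replicate set the directions of kek1, Hr38, rho and sty were the same as over the group means. The level of kek1 was 164 to 226% of the B-gal library of the same set with the IntS4 label and 149 to 197% with the IntS6 label, against 48.2 to 68.1% with mts and 61.0 to 84.3% with Pp2A-29B dsRNA. That of Hr38 was 705 to 1182% and 330 to 571% with the Integrator labels, 4.87 to 28.3% with mts and 17.6 to 27.9% with Pp2A-29B dsRNA. The antagonist sty stood at 59.3 to 75.5%, 52.9 to 77.9%, 27.0 to 30.4% and 33.1 to 45.8% in the order of those groups, below its control in every set. In B-gal and Mock alike, set A held the lowest level of sty, pnt and aop, and the same set held the highest percentages of sty and aop in all 4 dsRNA groups.

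**Figure D3:**
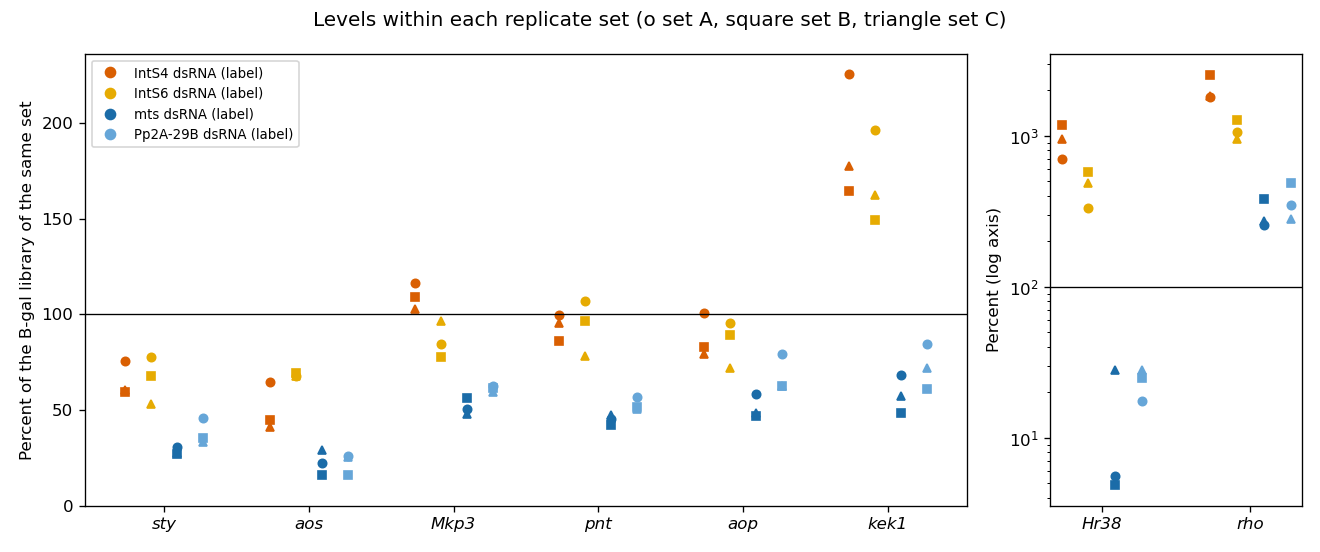
Level of 8 of the genes as a percentage of the B-gal library of the same replicate set (vertical axes; the right panel has a log axis), with the line at 100%. Each point is 1 library. All points of kek1 and Hr38 lie above the line with the IntS4 and IntS6 labels and below it with mts and Pp2A-29B dsRNA, and all points of rho lie above it. The gene sr is left out for its few control counts.

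Upstream of these genes, the core cascade runs from Ras to ERK. The list used for it also holds adaptors above Ras and inhibitors of the chain, so its counts and median mix genes of opposite effect. Of the 15 genes listed, 3 were higher and 4 lower in the PP2A mean than in the Integrator-labelled mean (median log2 difference 0.03). Of all tested genes 26% were higher, 33.6% lower and 59.6% called. In this contrast the share of the core genes called was below that of all genes. Against B-gal, 3 core genes were higher and 2 lower with the IntS4 label, and 3 and 3 with the IntS6 label. With mts dsRNA 5 were higher and 3 lower, and with Pp2A-29B dsRNA 3 and 4. Of all tested genes 27, 26.4, 26.6 and 21% were higher and 20.2, 19.3, 24.8 and 17.8% lower in these 4 comparisons. The ERK gene rl itself was at 41.8 ± 8.24 CPM with B-gal dsRNA and at 39.7 ± 2.54, 42.8 ± 5.05, 45.1 ± 1.92 and 41.5 ± 5.69 CPM in the IntS4-labelled, IntS6-labelled, mts and Pp2A-29B libraries, and was not called (chosen after its values were seen). Between the PP2A and Integrator-labelled means, the core genes with the smallest adjusted p were Ras85D, drk, cnk and dos. Ras85D had a difference of 0.52 (adjusted p = 5.1e-06) and the adaptor gene drk 0.50 (adjusted p = 1.3e-06). The scaffold genes cnk and dos had -0.46 (adjusted p = 3.2e-07) and -0.45 (adjusted p = 5.6e-06).

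All 6 tested receptor tyrosine kinase genes, of 9 listed, were lower in the PP2A mean, against 33.6% of all genes, with a median log2 difference of -1.48. Of these, sev and btl passed the filter through the Integrator-labelled libraries in which they were high, so their direction was fixed and the count and median are descriptions only. Against B-gal, 3, 3, 1 and 1 of the 6 were higher and 2, 1, 3 and 3 lower in the IntS4-labelled, IntS6-labelled, mts and Pp2A-29B libraries. The shares of all genes there were 27, 26.4, 26.6 and 21% higher and 20.2, 19.3, 24.8 and 17.8% lower. Pvr, the receptor of the PDGF- and VEGF-like factors, was at 314 ± 14.3 CPM with B-gal dsRNA and at 196 ± 22.8, 210 ± 13.8, 86.1 ± 17.7 and 99.4 ± 14.8 CPM in the IntS4-labelled, IntS6-labelled, mts and Pp2A-29B libraries. It was lower than B-gal in all 4 (log2 -0.68, -0.58, -1.87 and -1.66, adjusted p = 0.0013 or less), as sty and aos were. The insulin receptor gene InR fell with mts (-1.48, adjusted p = 8.6e-09) and Pp2A-29B dsRNA (-1.01, adjusted p = 1.4e-06). The FGF receptor gene btl and sev, the receptor of the R7 photoreceptor, were nearly silent in controls (7 and 2 summed B-gal counts). The ratio of sev to B-gal was 266 (exact 95% interval 73.4 to 2206) with the IntS4 label and 293 (80.8 to 2428) with the IntS6 label, and for btl it was 52.1 (25.0 to 131) and 35.1 (16.8 to 88.4). The difference of the PP2A mean from the Integrator-labelled mean was 0.0102 as a count ratio for sev (10 against 1075 counts, 0.00486 to 0.0188) and -2.96 on the log2 scale for btl (adjusted p = 2.1e-08).

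Of 17 genes for ligands and their processing 12 were tested, of which 9 were lower and 2 higher in the PP2A mean (median -0.98), against 33.6% and 26% of all genes. Against B-gal, 5, 7, 2 and 2 were higher and 1, 1, 6 and 5 lower in the IntS4-labelled, IntS6-labelled, mts and Pp2A-29B libraries. The shares of all genes there were 27, 26.4, 26.6 and 21% higher and 20.2, 19.3, 24.8 and 17.8% lower. Among the ligand genes, bnl, an FGF, fell with mts (-1.73, adjusted p = 4.6e-08) and Pp2A-29B dsRNA (-1.02, adjusted p = 2.2e-05). The FGF gene pyr rose with the Integrator labels (1.15 and 0.99, adjusted p = 3.9e-06 and 2.5e-05), as did the EGF receptor ligand gene vn (1.99 and 1.61, adjusted p = 1.5e-05 and 0.00018) and Pvf1, a ligand of Pvr (1.57 and 2.39, adjusted p = 0.00097 and 1e-05). The levels of these ligands with mts and Pp2A-29B dsRNA were 11.7 ± 0.491 and 12.4 ± 0.113 CPM for pyr, 2.55 ± 1.34 and 5.04 ± 1.97 CPM for vn and 0.723 ± 0.261 and 1.32 ± 0.196 CPM for Pvf1, against 12.2 ± 2.21, 3.42 ± 0.402 and 1.44 ± 0.533 CPM with B-gal dsRNA. The ligand gene spi and the receptor gene Egfr were added after their values were seen, because Rhomboid, Argos and Kekkon 1 act on their products. The level of spi was 86.8 ± 21.4 CPM with B-gal dsRNA and 61.6 ± 5.04, 63.7 ± 5.15, 31.3 ± 2.69 and 37.6 ± 1.88 CPM in the IntS4-labelled, IntS6-labelled, mts and Pp2A-29B libraries. That of Egfr was 28.7 ± 2.68, 35.9 ± 2.89, 42.8 ± 4.91, 31.9 ± 1.96 and 29.0 ± 1.27 CPM in the same order, highest in the Integrator-labelled groups.

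**Figure D4:**
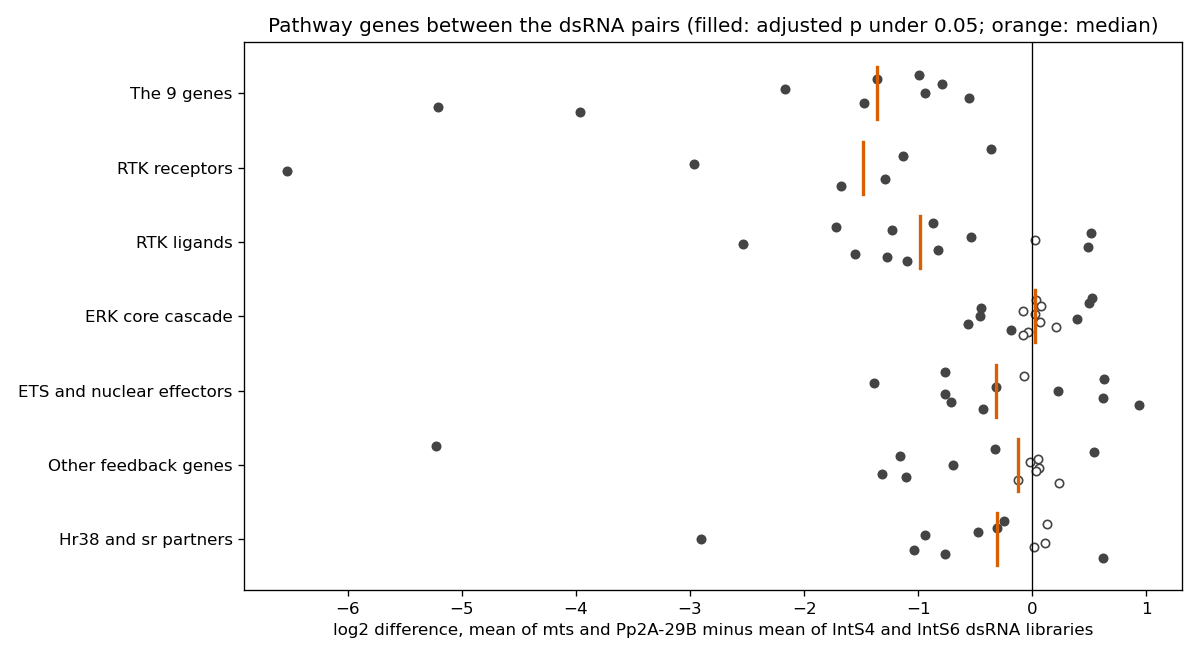
Log2 difference of the mean of the mts and Pp2A-29B groups from the mean of the IntS4- and IntS6-labelled groups (horizontal axis) for each tested gene of 7 lists. Filled points have an adjusted p under 0.05 and the orange bar is the median of the list. All 9 genes and all 6 tested receptor genes lie below 0, of which sr, sev and btl passed the filter through the Integrator-labelled libraries, while the core cascade has a median of 0.03.

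A list of other feedback genes and kek1 relatives, not all of them known inhibitors of receptor tyrosine kinase signalling, was mixed. Of 13 tested genes, 6 were lower and 1 higher in the PP2A mean (median -0.12), against 33.6% and 26% of all genes. Of the 6, kek2 had 1 B-gal count and passed the filter through the Integrator-labelled libraries. Against B-gal, 6, 6, 1 and 0 were higher and 6, 3, 7 and 5 lower in the IntS4-labelled, IntS6-labelled, mts and Pp2A-29B libraries. The shares of all genes there were 27, 26.4, 26.6 and 21% higher and 20.2, 19.3, 24.8 and 17.8% lower. The 6 lower with the IntS4 label were kek5, kek6, Cbl, Ptp61F, Socs44A and Mkp, which the naming rule did not take, whereas all 4 genes that it took rose with both Integrator labels. The receptor tyrosine phosphatase genes Ptp10D and Ptp4E, known to restrain EGF receptor signalling, rose with both Integrator labels (0.89 and 0.93, and 1.43 and 1.42, adjusted p = 4.5e-06 or less). With mts dsRNA Ptp10D fell (-0.58, adjusted p = 0.00066), whereas Ptp4E rose (0.33, adjusted p = 0.036). The kek1 relative lbk and Socs36E, which also restrains JAK/STAT signalling, likewise rose with both labels (0.86 and 0.96, and 0.48 and 0.42, adjusted p = 0.00032 or less) and fell with mts dsRNA (-0.47 and -0.50, adjusted p = 0.00038 and 5.9e-05). With Pp2A-29B dsRNA lbk was at 22.7 ± 0.849 and Socs36E at 199 ± 15.1 CPM, against 23.2 ± 1.92 and 198 ± 8.51 CPM with B-gal dsRNA. Their levels with Pp2A-29B dsRNA overlapped the B-gal range, whereas those of kek1 lay below it.

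Among 11 tested ETS and nuclear effectors, 6 were lower and 4 higher in the PP2A mean (median -0.32), against 33.6% and 26% of all genes. Against B-gal, 4, 4, 3 and 3 were higher and 3, 3, 5 and 3 lower in the IntS4-labelled, IntS6-labelled, mts and Pp2A-29B libraries. The shares of all genes there were 27, 26.4, 26.6 and 21% higher and 20.2, 19.3, 24.8 and 17.8% lower. The gene edl, whose product binds both Yan and Pointed and limits their activity, rose with both Integrator labels (0.78 and 0.86, adjusted p = 0.00018 and 6.6e-05) and fell with mts and Pp2A-29B dsRNA (-0.58 and -0.55, adjusted p = 0.0037 and 0.0067). The Fos gene kay, an immediate early gene in mammals, rose with both Integrator labels (0.72 and 0.50, adjusted p = 1.8e-05 and 0.00083). Its level was 181 ± 7.8 and 187 ± 4.1 CPM with mts and Pp2A-29B against 205 ± 26.3 CPM with B-gal dsRNA. The Jun gene Jra of the same list differed and rose with mts (1.39, adjusted p = 4.1e-06) and Pp2A-29B dsRNA (0.67, adjusted p = 0.006). Jra was not called with the IntS4 (0.42, adjusted p = 0.065) or IntS6 label (0.39, adjusted p = 0.081). The Myc antagonist gene Mnt was lower with both Integrator labels (-0.64 and -0.61, adjusted p = 0.0029 and 0.0043). It was higher with mts dsRNA (0.43, adjusted p = 0.03). The ecdysone-induced ETS gene Eip74EF was higher in the PP2A mean by 0.63 (adjusted p = 1.1e-06).

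Of the partners and relatives of Hr38 and sr, 7 of 11 tested were lower and 1 higher in the PP2A mean (median -0.31), against 33.6% and 26% of all genes. Against B-gal, 4, 5, 2 and 3 were higher and 3, 0, 4 and 3 lower in the same order of groups. The shares of all genes there were 27, 26.4, 26.6 and 21% higher and 20.2, 19.3, 24.8 and 17.8% lower. The nuclear receptor gene Hr3, with 7 summed B-gal counts and in the test through the Integrator-labelled libraries, had a ratio to B-gal of 16.9 (exact 95% interval 7.96 to 43.1) with the IntS4 label and 29.1 (13.9 to 73.4) with the IntS6 label. It stood at 1.73 (0.593 to 5.34) with mts and 4.91 (2.13 to 13.2) with Pp2A-29B dsRNA. Hr3 was above B-gal with Pp2A-29B dsRNA (log2 2.23, adjusted p = 0.00048). Eip75B, a nuclear receptor gene induced by ecdysone, rose with both Integrator labels (0.71 and 0.59, adjusted p = 2.2e-05 and 0.00015) and fell with mts dsRNA (-0.37, adjusted p = 0.0078). Atf3, a stress-responsive bZIP factor gene, fell with mts (-1.23, adjusted p = 1.3e-05) and Pp2A-29B dsRNA (-1.47, adjusted p = 3.7e-06). Atf3 also fell with the IntS4 label (-0.41, adjusted p = 0.047) and was not called with the IntS6 label (-0.21, adjusted p = 0.31).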

How the data were processed

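RNA-seq was made from 18 DL1 libraries, rRNA-depleted and strand-specific per the labels' protocols. The deposited table gives estimated counts by gene and library without normalization, and 90.1% of its values lay within 0.005 of a whole number. Trimmomatic 0.39, featureCounts and the builds dm6 and BDGP6 come from the submitters' processing notes. The aligner and the counting settings, strand included, are not given in the sources used here. Coordinates and symbols come from the Ensembl 115 annotation of BDGP6, which holds 17626 of the 17753 entries.

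Because the test had been planned for whole counts, values were rounded before it. All groups entered 1 edgeR 4.0.16 fit (R 4.3.3, TMM factors, filterByExpr with a count minimum of 10, quasi-likelihood F test), which kept 8699 genes with 12 residual degrees of freedom. A gene is called when its two-sided p, adjusted after Benjamini and Hochberg across the tested genes, is under 0.05, and "rose" and "fell" mean called. Standard errors (SE) are log2 values over the root of F. Intervals of log2 values use 12 degrees of freedom, and count ratios have exact 95% intervals that cover counting error only. CPM come from the rounded counts and TMM-scaled totals. The 138 ribosomal RNA entries stayed in the totals, which left 3545828 to 6325688 other counts per library.

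Members, gene lists and tests were chosen with earlier results of these data known. Named beside the 9 genes are the 4 targeted genes, up to 4 genes per pathway list with the smallest adjusted p between the PP2A and Integrator-labelled means, and the 2 genes most correlated with each member. Outside this rule stand rl, spi, Egfr, Jra and the list genes named only by direction, all chosen after their values were seen. CG2617, named for its overlap with Hr38, and single cell type markers also stand outside it. Replicate letters paired the libraries (all same-letter correlations of deviations above 0.1) between B-gal and Mock (lowest r = 0.57), between B-gal and IntS4 (0.38), IntS6 (0.25) or mts (0.13), and between mts and Pp2A-29B (0.17), but not in the other comparisons made. Between B-gal and mts the highest correlation of different letters (0.23) exceeded that lowest value, so the pairing there was weak. The main fit had no replicate block. Alternatives were DESeq2 1.42.0 size factors and test, no filter, ribosomal RNA left out, a replicate block, only the groups compared, and each library left out. On counts simulated for IntS4 against B-gal over 8011 genes, 66% of 1.5-fold and 98% of 2-fold changes were recovered. Only a sample of these genes was changed, drawn from those above 2 CPM with B-gal dsRNA, and no replicate-set effect was simulated. These shares therefore do not cover rho and sr, which lie below that level.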

Additional observations from a re-analysis of the deposited data

How the results depend on the processing

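Depth limited sr, with 5 B-gal counts, and Hr38 with mts dsRNA, with 20. For IntS6 against IntS4, whose letters did not pair the libraries, the count of genes called went from 569 to 943 with the replicate block, with 386 to 531 when a library was left out. For Pp2A-29B against mts it went from 848 to 1457 with the block, and from 266 to 1093 with a library left out. Of the members' values, 363 kept direction and call under the other settings, 3 lost and 2 gained a call and 7 reversed. With a library left out 396 kept both, 23 lost and 4 gained a call and 9 reversed. Of other named genes' values, 500 and 623 kept both, and 7 and 25 lost the call, among them the calls against B-gal of Atf3 and Eip74EF with the IntS4 label and of Mnt and Ptp4E with mts dsRNA. Reversals were differences near 0. For pnt, IntS6 against IntS4 was 0.00035 with DESeq2 size factors, 0.0011 with the DESeq2 test, 0.0050 without the filter, 0.0045 without ribosomal RNA and 0.0049 with only the groups compared, and -0.057 to 0.067 with a library left out. In that comparison the left-out range was -0.062 to 0.083 for sty and -0.11 to 0.020 for aop. For aos, Pp2A-29B against mts was -0.0012 with the DESeq2 test and -0.020 without the filter, and -0.22 to 0.29 with a library left out.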

Other observations

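The 9 genes fell into different patterns over the 18 libraries, described by Pearson's r of log2 CPM, for which the points share groups, replicate sets and the scaling by library and have no test. The levels of sty, pnt and aop went together (r = 0.96 for sty with aop, and 0.94 for sty with pnt), and aos was close to sty (0.92). The levels of kek1 and Hr38 went together (0.95), and rho was nearest to sr (0.87). The level of rho had r = -0.26 with sty and -0.31 with aos.

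Over 18 libraries, and among up to 5903 genes whose mean log2 CPM was 2 or more, the genes most like each member were given by the same measure. For sty these were CG10283 (0.98) and the cell cycle factor gene E2f1 (0.98). The nearest to aos was upd1 (0.98), which encodes a ligand of the JAK/STAT pathway and was at 20.1 CPM with B-gal, 1.69 with mts and 2.29 with Pp2A-29B dsRNA. For Mkp3 they were the ribosomal protein genes RpL22 (0.98) and RpL3 (0.97). For rho they were SKIP (0.99) and mgl (0.98), a megalin-like receptor gene at 1.93 CPM with B-gal dsRNA, 261 and 175 CPM with the IntS4 and IntS6 labels, and 21.7 and 20.2 CPM with mts and Pp2A-29B dsRNA. For pnt they were cv-c and the adhesion gene Fas1 (0.97 each), and for aop brat (0.97) and sty (0.96). For kek1 they were loco (0.99), a regulator of G protein signalling, and CG45263 (0.98), at 29.7 CPM with B-gal dsRNA, 150 and 163 CPM with the IntS4 and IntS6 labels and 5.40 and 10.8 CPM with mts and Pp2A-29B dsRNA. For Hr38 they were hang and Faa (0.97 each), and for sr the channel gene Trpm and the small heat shock gene Hsp27 (0.94 each).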
